A study of Mus musculus with 2 samples.

Results

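The immunoproteasome and the machinery that loads peptides onto major histocompatibility complex (MHC) class I molecules were followed through 10 genes in memory T helper 2 (Th2) cells: Psmb8, Psmb9, Psmb10, Psme1, Psme2, Tap1, Tap2, Tapbp, B2m and Nlrc5. Members were taken by gene symbol, as all probe sets that the platform annotation assigns to 1 of these symbols alone; this rule uses no measured value, although the list was drawn up with earlier results of these data known. This gave 15 probe sets for 9 genes, out of 45037 probe sets and 18193 named genes on the array. The remaining gene, Psme2, is represented by 1 probe set that the annotation shares with Psme2b, so it was not analysed here.

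The study set IL-5+ memory Th2 cells against IL-5- memory Th2 cells, with 1 Affymetrix array for each. Both fractions came from CD4 T cells of BALB/c mice, DO11.10 TCR Tg, whose transgenic receptor is specific for a peptide of ovalbumin (OVA). The splenic cells, over 98% pure, were stimulated with OVA peptide for 6 days in 25 U/ml IL-2 and 100 U/ml IL-4, transferred into syngenic BALB/c nu/nu mice, and recovered from the spleen 30 days later. These recipients lack a thymus but still have their own B cells, NK cells and myeloid cells. The fractions were then separated on a flow sorter by IL-5. The labels give neither the mice's ages, the number of donors and recipients, nor whether RNA was pooled. With 1 array a group there is no replicate check and no p-value, and each value describes these RNA samples alone.

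The proteasome is a barrel-shaped protease that cuts proteins in the cytosol and nucleus, and interferon gamma exchanges its catalytic subunits for those encoded by Psmb8, Psmb9 and Psmb10. The peptides are pumped into the endoplasmic reticulum by the Tap1 and Tap2 transporter, bridged by tapasin (Tapbp) to class I heavy chains paired with beta-2 microglobulin (B2m), and carried to the surface for CD8 T cells to inspect. Nlrc5 is the transactivator of class I genes, and it is itself induced by interferon.

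Promoters are shown for 3 genes with lower signals in IL-5+ cells (Psmb9, Tap1 and Tapbp) and for 3 whose signals were nearly level (Psmb8, Psme1 and B2m). The window of Psmb10, also nearly level, held 0 matches to the motifs below and is not printed. Windows from 250 bases before to 50 bases after the annotated start were taken from RefSeq on GRCm38.p6, which held 8 of the 10 genes. Capitals mark matches, on either strand, to 5 motifs: the interferon-stimulated response element (ISRE, GAAANNGAAA), the STAT-type GAS element (TTCNNNGAA), a kappa B-type element (GGGANNNNCC), the CRE half-site (TGACG) and the CCAAT box (CCAAT). Runs of capitals can hold overlapping matches, as at the kappa B-type element of B2m, which reads on both strands. The Tap1 window is also the promoter of Psmb9, read in the opposite direction, and is given once for both.
Tap1 (chr17:34187306-34187605, plus strand): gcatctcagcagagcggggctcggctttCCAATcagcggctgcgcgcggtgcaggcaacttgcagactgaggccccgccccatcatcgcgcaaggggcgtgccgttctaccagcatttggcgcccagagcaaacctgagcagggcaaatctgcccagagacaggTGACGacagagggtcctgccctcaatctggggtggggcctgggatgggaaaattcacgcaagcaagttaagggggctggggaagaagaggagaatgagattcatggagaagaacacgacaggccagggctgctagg
Tapbp (chr17:33919228-33919527, plus strand): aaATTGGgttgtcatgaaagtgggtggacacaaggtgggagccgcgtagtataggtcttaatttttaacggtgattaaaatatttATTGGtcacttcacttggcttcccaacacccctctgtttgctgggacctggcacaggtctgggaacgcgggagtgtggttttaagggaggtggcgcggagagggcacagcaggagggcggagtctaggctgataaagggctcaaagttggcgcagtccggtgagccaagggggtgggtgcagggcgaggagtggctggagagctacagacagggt
Psmb8 (chr17:34197945-34198244, plus strand): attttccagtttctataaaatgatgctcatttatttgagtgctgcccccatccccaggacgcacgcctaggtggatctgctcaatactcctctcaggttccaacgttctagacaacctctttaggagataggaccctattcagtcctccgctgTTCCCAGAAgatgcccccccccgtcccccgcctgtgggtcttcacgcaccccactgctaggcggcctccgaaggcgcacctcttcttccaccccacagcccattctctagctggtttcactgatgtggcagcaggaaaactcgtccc
Psme1 (chr14:55578244-55578543, plus strand): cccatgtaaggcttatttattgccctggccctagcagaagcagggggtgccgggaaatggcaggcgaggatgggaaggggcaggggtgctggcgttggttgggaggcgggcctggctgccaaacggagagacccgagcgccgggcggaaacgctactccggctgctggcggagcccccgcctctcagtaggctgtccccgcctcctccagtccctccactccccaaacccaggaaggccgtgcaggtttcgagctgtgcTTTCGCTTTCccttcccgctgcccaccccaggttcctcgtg
B2m (chr2:122147437-122147736, plus strand): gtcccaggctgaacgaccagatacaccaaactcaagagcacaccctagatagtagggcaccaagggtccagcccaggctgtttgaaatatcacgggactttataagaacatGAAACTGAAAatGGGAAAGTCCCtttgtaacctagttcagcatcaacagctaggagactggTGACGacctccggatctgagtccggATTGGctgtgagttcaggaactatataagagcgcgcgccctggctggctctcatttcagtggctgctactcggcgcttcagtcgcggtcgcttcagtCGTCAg

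Tap1 and Psmb9 face away from each other, with 226 bases between their annotated starts and 275 bases common to both windows (chr17:34187306-34187580). That common stretch holds 1 CRE half-site and 1 CCAAT box. Of the windows analysed, those of B2m and Psme1 held an ISRE-type match, against 3.44% of all 32851 promoter windows of the same length. Psmb8 held the only GAS-type match (8.30% of all windows) and B2m the only kappa B-type matches (20.7% of all windows). CRE half-sites stood in 5 of the 9 windows analysed, against 20.8% of all windows, and CCAAT boxes in 4 of 9, against 37.4%. These windows are not independent, since those of Tap1 and Psmb9 overlap and the windows of Psme2 overlap each other. A match is a run of letters and not evidence of binding, and a window without one says nothing about the factor.

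The genes were divided, from these same values, into a lower set and a level set. Psmb9, Tapbp, Tap2, Nlrc5 and Tap1 had between 36.7% and 53.8% of their IL-5- signal on the IL-5+ array, whereas Psmb8, Psmb10, Psme1 and B2m had between 84.1% and 101%. In such bulk samples, fewer cells of a type and less RNA per cell cannot be told apart. Their log2 ratios (IL-5+ over IL-5-) ran from -1.45 to -0.89 in the first 5 genes and from -0.25 to 0.02 in the other 4. Psmb9 and Tapbp reached 2-fold lower, and 0 of 9 reached 2-fold higher. Among the 13133 named genes above the floor on at least 1 array, 4.01% were at least 2-fold lower and 2.85% at least 2-fold higher. The floor was a signal of 36.3, the 40th percentile of all signals, and every gene-level value of the members lay far above it. Since Tap2, Nlrc5 and Tap1 lay just inside 2-fold, the count depends on where the line is drawn: at 1.5-fold it was 5 of 9 lower and 0 of 9 higher, against 11.9% and 7.88% of all named genes. The median of the 9 log2 ratios was -0.89, beside -0.05 over all 13133 genes.

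The members are bright, so the bright genes are the closer background. Of 6129 named genes whose brighter signal was 500 or more, 2.46% were at least 2-fold lower and 2.22% at least 2-fold higher. At 1.5-fold these shares were 6.49% lower and 5.6% higher. The only error that the files allow to be measured is the disagreement between probe sets of one gene. Its SD on the log2 ratio was 0.13 at mean signals above 2000, 0.21 from 500 to 2000, 0.37 from 112.8 to 500 and 0.55 from 36.3 to 112.8. It was pooled over probe sets of a gene in the same signal range, so disagreement between bright and dim probe sets is left out. This SD also leaves out the variation between cell preparations, which was not measured, so multiples of it are no test. Ratios of the lower set exceeded this SD several times over. In the level set, Psme1 and B2m lay within it, while Psmb8 and Psmb10 lay outside it by less than its own size.

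**Figure D1:**
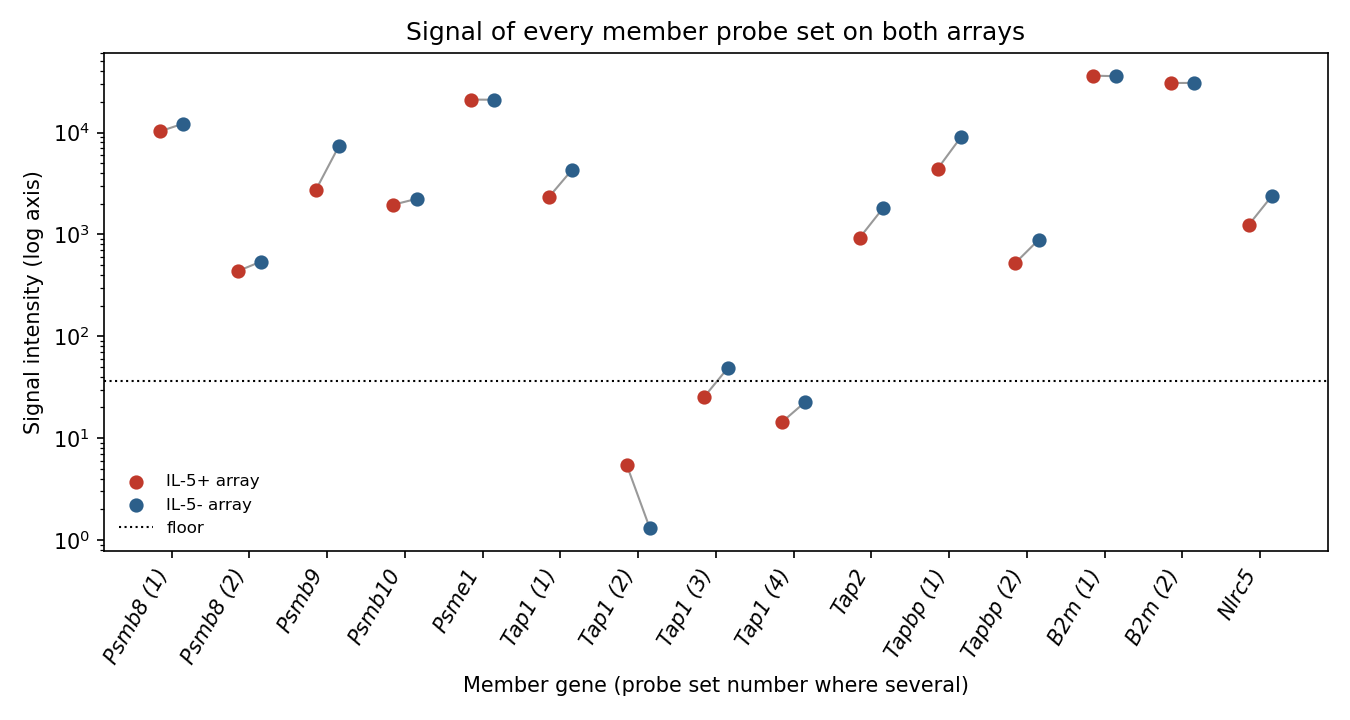
Signal intensity (log axis) of each of the 15 member probe sets on the IL-5+ array (red, left) and the IL-5- array (blue, right), with numbers in brackets where a gene has several probe sets and the floor of 36.3 as a dotted line. The steepest of the lines above the floor is that of Psmb9 (2698 against 7349), the lines of B2m and Psme1 are flat, and 2 of the 4 Tap1 probe sets are under the floor on both arrays and 1 on the IL-5+ array alone.

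Of the catalytic subunits, Psmb9 stood apart from its partners. Psmb9, encoding the interferon-inducible subunit LMP2, had a signal of 2698 in IL-5+ cells and 7349 in IL-5- cells, 2.72-fold lower in IL-5+ cells (log2 ratio -1.45). Only 1.43% of measured genes had a ratio as low or lower. Psmb9 and Psmb10 are each measured by 1 probe set, so no other probe set checks their ratios. Psmb8, encoding LMP7, had 10283 in IL-5+ cells and 12233 in IL-5- cells (-0.25). Its second probe set, dimmer at 436.5 in IL-5+ cells and 541.0 in IL-5- cells, gave a similar ratio of -0.31. Psmb10, encoding MECL-1, had 1956 in IL-5+ cells and 2234 in IL-5- cells (-0.19). The log2 ratio of Psmb9 was lower than that of Psmb8 by 1.19 and lower than that of Psmb10 by 1.25. In both cases this was over 6 times 0.19, the SD for a difference between ratios at this brightness. That SD takes in only probe sets in the same signal range, and Psmb9 has 1, so the multiple is no test. Psmb8 and Psmb10 did not differ beyond that SD. LMP2, LMP7 and MECL-1 are built into one particle, and the array shows their messenger RNA only.

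The standard subunits that these replace did not share the difference. Psmb6, the constitutive counterpart of Psmb9, had signals of 10678 in IL-5+ cells and 10307 in IL-5- cells (log2 ratio 0.05). Psmb5, replaced by Psmb8, stood at 0.16 (11267 in IL-5+ cells and 10094 in IL-5- cells), and Psmb7, replaced by Psmb10, at 0.19 (3622 in IL-5+ cells and 3179 in IL-5- cells). The immunoproteasome subunit thus had the lower ratio in each of the 3 pairs. The gap was -1.50 for Psmb9 and Psmb6, -0.41 for Psmb8 and Psmb5, and -0.38 for Psmb10 and Psmb7, with an SD of 0.19 for such a gap.

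The rest of the proteasome was level. Of the 11 other 20S core genes 0 reached 1.5-fold in either direction, and their median log2 ratio was 0.04, led by Psma1 (0.14), Psmb2 (0.11), Psma5 (0.09) and Psmb3 (0.09). The 18 measured genes of the 19S cap, which recognises and unfolds ubiquitin-tagged proteins, had a median of 0.07 with 0 at 1.5-fold. Psmd11 (0.29), Psmd1 (0.22), Psmd6 (0.18) and Psmc1 (0.16) had the largest ratios there. Over constitutive catalytic, core and cap genes combined, 26 of 32 ratios were above 0 and they ran from -0.08 to 0.29. These values come from the brightest probe set of each gene, and dimmer ones disagreed in places, reaching -0.49 for Psma1 and 0.998 for Psmd4, named after its values were seen. Housekeeping genes, a check on the scaling, had a median of 0.06 over 6 measured genes with 0 at 1.5-fold, among them Pgk1 (0.16), Rplp0 (0.10), Tbp (0.08) and Tubb5 (-0.06).

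Psme1, which encodes the alpha chain of the ring-shaped activator PA28, was level too; the other chain, Psme2, was not analysed here. Psme1 had a signal of 21047 in IL-5+ cells and 20981 in IL-5- cells (log2 ratio 0.0045). It is known as an interferon gamma-inducible gene. Its signals are high in the range of the arrays, so a modest difference could be understated, as set out for B2m below. Psme3, which forms the nuclear relative of this ring, stood at 0.26 (3556 in IL-5+ cells and 2970 in IL-5- cells), and the activator Psme4 at 0.18. The assembly factor genes Psmg3 (-0.34) and Psmg2 (-0.14) had the lowest ratios of their list, in which 0 of 8 genes reached 1.5-fold.

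**Figure D2:**
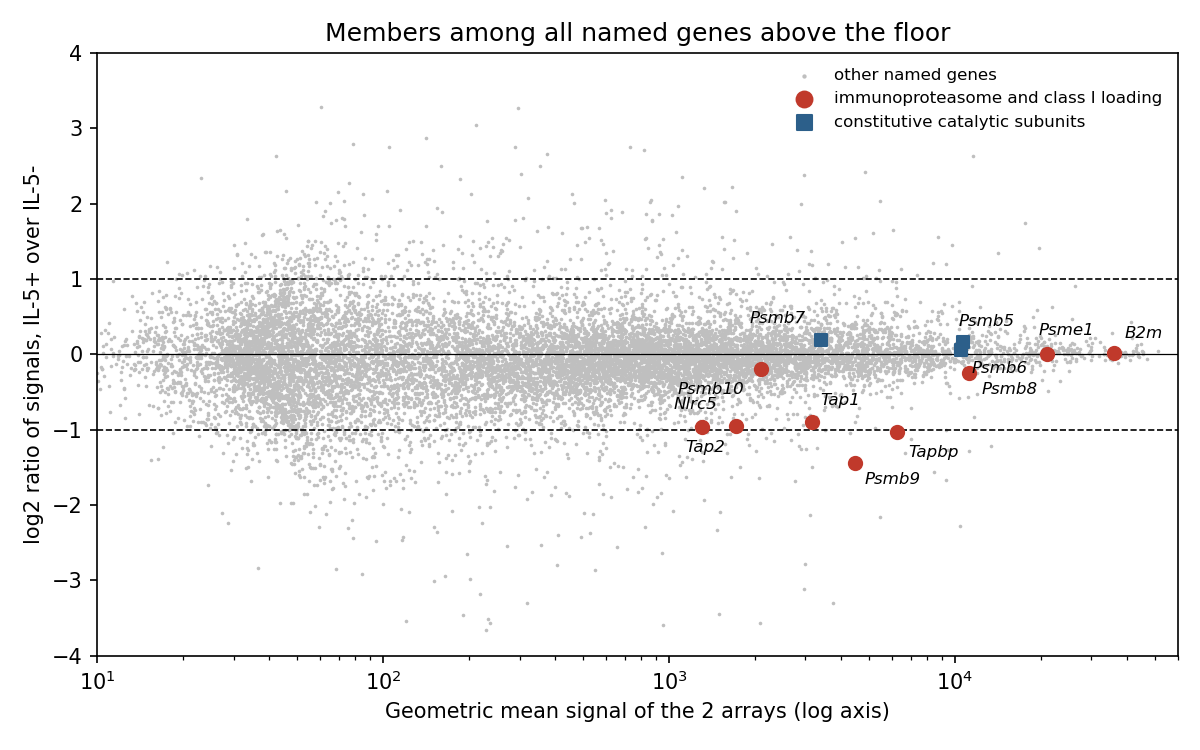
Log2 signal ratio (IL-5+ over IL-5-) against the geometric mean signal of the arrays (log axis) for the named genes above the floor (grey), the 9 members (red circles) and the constitutive catalytic subunits (blue squares), with dashed lines at 2-fold and genes beyond the axes not drawn. Psmb9 at -1.45 and Tapbp at -1.03 lie below the lower dashed line, and Tap2, Nlrc5 and Tap1 lie close to it.

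Both chains of the peptide transporter were lower in IL-5+ cells, by a similar factor. Tap1 had a signal of 2322 in IL-5+ cells and 4317 in IL-5- cells, 1.86-fold lower in IL-5+ cells (log2 ratio -0.89). Tap2, measured by 1 probe set, had 930.9 in IL-5+ cells and 1816 in IL-5- cells, 1.95-fold lower (-0.96). The ratios of these chains, which work only as a pair, differed by 0.07, less than the SD of 0.25 for such a difference. The other 3 Tap1 probe sets give little information: 2 were under the floor on both arrays, and the third had 25.5 in IL-5+ cells and 48.5 in IL-5- cells, at least 1.34-fold lower with the floor in place of the dimmer signal.

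The gene order places these results in one stretch of the MHC region of chromosome 17. In the RefSeq table Psmb9, Tap1, Psmb8 and Tap2 follow each other with no other protein-coding gene between them, and their log2 ratios in that order were -1.45, -0.89, -0.25 and -0.96. Psmb8, level within 1.5-fold, thus sits between both transporter genes. Psmb9 and Tap1, which share the divergent promoter printed above, differed in ratio by 0.55, 2.91 times the SD of 0.19 for such a difference. As above, this multiple is no test.

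Tapasin, which holds empty class I molecules next to the transporter and edits their peptides, was lower as well. The brighter Tapbp probe set had 4398 in IL-5+ cells and 9005 in IL-5- cells, 2.05-fold lower in IL-5+ cells (log2 ratio -1.03). The dimmer one had 524.0 in IL-5+ cells and 885.5 in IL-5- cells, or -0.76, so that both gave the same direction but only the first reached 2-fold. Tapbpl, a tapasin relative that also edits peptides, stood at -0.28 (1096 in IL-5+ cells and 1332 in IL-5- cells). The general folding factors that assist class I assembly ran the other way, by small amounts at the brightest probe sets. Pdia3 was at 0.26 (0.77 at its other probe set). The lectin chaperone genes were at 0.20 for Calr (up to 0.44 at its others) and 0.16 for Canx (up to 0.23). Erap1, the peptidase that trims peptides in the endoplasmic reticulum, was at 0.00079 (2195 in IL-5+ cells and 2194 in IL-5- cells). Of these 5 loading genes outside the member list, 0 reached 1.5-fold at the brightest probe set, though Pdia3 did at its other.

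B2m, the light chain of every class I molecule, was among the brightest genes and did not differ. Its probe sets had signals of 36171 and 30626 in IL-5+ cells, against 35690 and 30687 in IL-5- cells (log2 ratios 0.02 and -0.0029). Signals of this size lie near the top of a range that ended at 51950, where array signals are compressed, so a modest difference could be understated here.

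Nlrc5, the class I transactivator, had a signal of 1234 in IL-5+ cells and 2384 in IL-5- cells, 1.93-fold lower in IL-5+ cells (log2 ratio -0.95). It is measured by 1 probe set. In the order of ratios, Tapbp, Tap2, Nlrc5 and Tap1 are neighbours that differ by less than 0.08 each, within the SD for such differences. The step between Tap1 and Psmb8, at 0.64, was the widest in the order and 3.40 times the SD, followed by the step of 0.41 between Psmb9 and Tapbp. The widest step was picked from the same values, so its size is no test of a split into a lower and a level set. Psmb8 and Psmb10, and Psme1 and B2m, were neighbours within the SD. The DNA-binding factors through which Nlrc5 acts had a median of 0.02 over 7 genes, with 0 at 1.5-fold. Among these, Rfx5 was at -0.55 (475.7 in IL-5+ cells and 698.6 in IL-5- cells), Nfya at -0.27, Nfyb at 0.27 and Nfyc at 0.16. These values come from the brightest probe set of each gene, and others disagreed in places. They reached -0.71 for Rfxank, -0.47 for Rfxap and 0.71 for Creb1, genes named after their values were seen.

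The class I heavy chains that this machinery serves were mixed, with the bright classical genes H2-K1 and H2-D1 level and some others lower. Both were named after their values were seen. H2-K1 and H2-D1 had signals of 26019 and 27988 in IL-5+ cells. In IL-5- cells they had 27056 and 26664 (log2 ratios -0.06 and 0.07). Their other measured probe sets gave from -0.52 to 0.06 for H2-K1 and from -0.21 to 0.18 for H2-D1. The brightest signals of both genes are high in the range, so a modest difference could be understated, as for B2m. Probe sets of this family can bind messages of several heavy chains. Of the 19 listed genes, 10 had no probe set of their own, H2-L among them. H2-T24 was lower at -0.96 (365.1 in IL-5+ cells and 710.0 in IL-5- cells). The lipid-presenting Cd1d1 stood at -1.48 (56.7 in IL-5+ cells and 158.5 in IL-5- cells) and H2-Q10 at -1.03 (47.8 in IL-5+ cells and 97.9 in IL-5- cells), both dim, where the SD between probe sets was 0.55. Mr1, as dim, was at -0.25 (54.9 in IL-5+ cells and 65.1 in IL-5- cells). Of the 8 measured genes, 2 were at least 2-fold lower and 0 higher, with a median of -0.23.

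**Figure D3:**
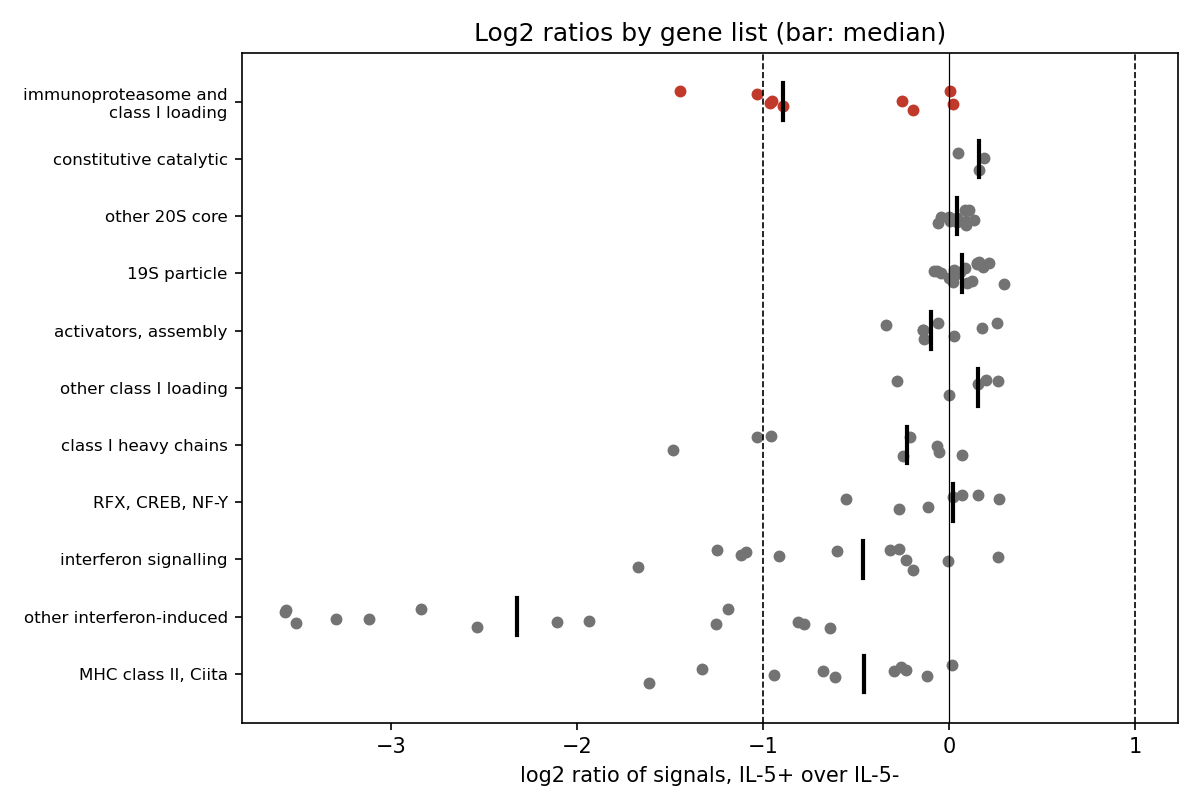
Log2 signal ratio (IL-5+ over IL-5-) of each measured gene in 11 lists, 1 point a gene, with the list median as a bar and dashed lines at 2-fold. The members (red) spread from -1.45 to 0.02, the constitutive proteasome lists lie close to 0, and all 14 other interferon-induced genes lie below 0.

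Genes of the interferon pathway, which acts upstream of many members, were measured on the same arrays. Irf1, a transcription factor that binds the promoters of several class I pathway genes, had 2130 in IL-5+ cells and 5050 in IL-5- cells (log2 ratio -1.25). Ifngr2, the signalling chain of the interferon gamma receptor, had 129.6 in IL-5+ cells and 413.1 in IL-5- cells (-1.67, and -1.45 at its other probe set). Irf2 (-1.09) and Stat2 (-1.12) were also at least 2-fold lower, which makes 4 of 12 measured genes of this list, with 0 higher and a median of -0.46. Tyk2, named after its values were seen, stood at -0.19 at its brighter probe set but at 1.29 at the other. Other interferon-induced genes differed by more than the members did: 11 of 14 were at least 2-fold lower and 0 higher, with a median of -2.32. Iigp1 (602.9 in IL-5+ cells and 7163 in IL-5- cells, -3.57), Ifit3 (-3.57), Mx1 (-3.51) and Cxcl10 (-3.30) led that list. The part of interferon signalling in the members' ratios was not tested.

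The sort and the cell type were checked on the same values. Il5 had a signal of 37085 in IL-5+ cells and 67.4 in IL-5- cells. The T cell genes Cd3d (9116 in IL-5+ cells and 13553 in IL-5- cells) and Cd28 (9051 in IL-5+ cells and 10151 in IL-5- cells) were bright on both arrays, and all 6 measured CD4 T cell markers had ratios below 0, with a median of -0.25. Cd3g, named after its value was seen, was the 1 marker past 1.5-fold, at -0.71 (5472 in IL-5+ cells and 8947 in IL-5- cells). MHC class II genes, which mark antigen-presenting cells and are also interferon-responsive, were dim. Of 10 measured genes 9 had ratios below 0 and 2 were at least 2-fold lower, many of them within the SD for their brightness, and the summed signal was 994.6 in IL-5+ cells and 1736 in IL-5- cells. H2-Aa (51.0 in IL-5+ cells and 155.8 in IL-5- cells), H2-Ea (at least 2.51-fold lower), H2-DMa (-0.94, but -0.04 at its other probe set) and H2-Ab1 (-0.68) led the class II list. Of 28 markers from 8 lists of other cell types, 15 were under the floor on both arrays and 0 were listed at 0. With the floor in place 0 reached 2-fold, but ratios of markers above it on 1 array only are bounds, as for Itgax (18.0 in IL-5+ cells and 70.1 in IL-5- cells, at least 1.93-fold lower), Adgre1 (at least 1.68-fold lower) and Fcer1g (at least 1.69-fold higher). The summed signal of the 28 markers, with signals under the floor included, was 1154 in IL-5+ cells and 1271 in IL-5- cells. By list it ran from 21.1 to 347.1 in IL-5+ cells and from 47.7 to 320.2 in IL-5- cells. The lists differed in direction. In IL-5+ cells the sum was higher for CD8 T cells (347.1 against 245.1) and NK cells (105.7 against 47.7). It was lower for every other list, as for monocytes and macrophages (155.5 against 233.4) and dendritic cells (96.0 against 140.5). The brightest markers were Cd8b1 (280.2 in IL-5+ cells and 168.4 in IL-5- cells) and Itga2b (225.7 in IL-5+ cells and 275.9 in IL-5- cells). The B cell markers Cd79b and Ms4a1 stayed at 62.1 or less on both arrays, and the myeloid and dendritic cell genes Csf1r, Adgre1, Itgax and Siglech at 124.5 or less. Cd8a, Fcer1g, Tyrobp, S100a8, S100a9, Cpa3, Epx and Pf4 stayed at 76.7 or less. The part of such cells in the members' ratios was not tested.

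**Figure D4:**
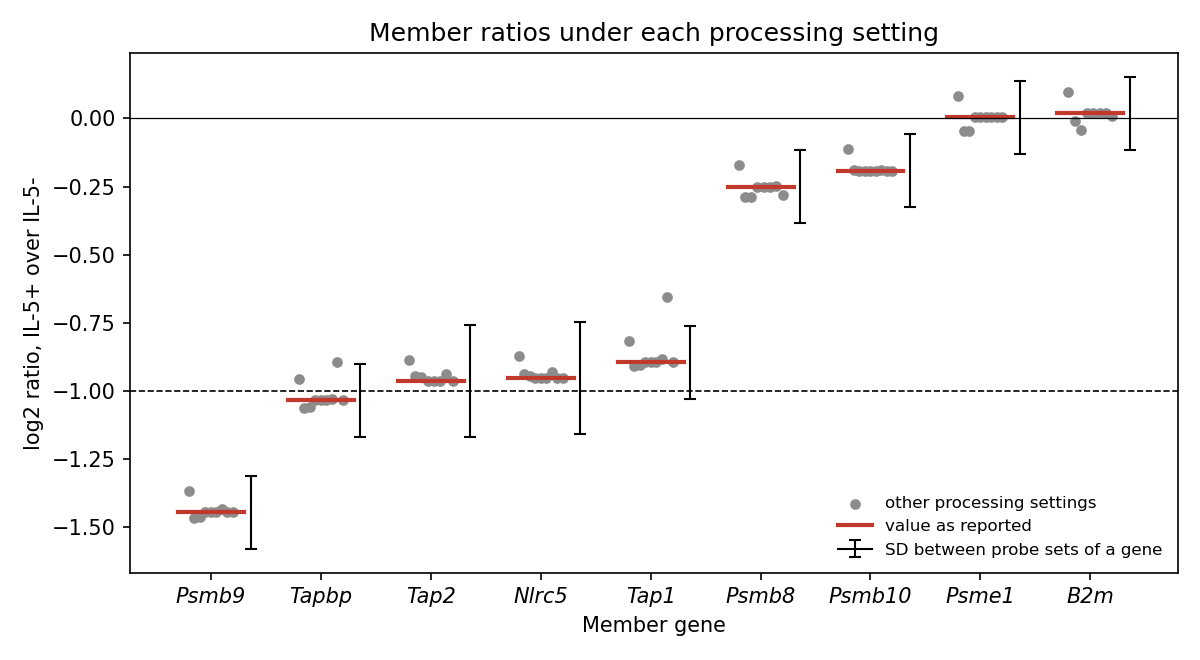
Log2 ratio (IL-5+ over IL-5-) of each member as reported (red bar) and under the other processing settings (grey points), with the SD between probe sets of a gene as the black bar and a dashed line at 2-fold. Psmb9 stays beyond 2-fold lower in every setting shown, between -1.46 and -1.37, and Tapbp crosses the line in 2 settings.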

How the data were processed

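Messenger RNA was measured on 2 Affymetrix arrays of sorted memory Th2 cells, 1 array a fraction. The authors deposited 1 linear signal intensity per probe set, made with GCOS per the submitters' processing notes; for GCOS, version, algorithm and target level were not given in the sources used here. Trimmed of 2% at each end, the mean signal was 496.4 in IL-5+ and 496.6 in IL-5- cells, so ratios are relative to the rest of each array. Detection calls were not used here. Precision is limited by the number of arrays.

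Of 45037 probe sets, 34945 carried 1 gene symbol, 932 carried several and 9160 had no gene symbol in the annotation. Entrez identifiers of 34741 matched a RefSeq table of GRCm38.p6, which changed 0 symbols. The deposited values name no build, so coordinates are given only for the RefSeq promoter windows. Each gene was represented by the probe set of highest mean log2 signal, signals under the 40th percentile (36.3) were set to it, and log2 ratios were taken as IL-5+ over IL-5-. A gene was counted at a 2-fold difference. Named genes outside the members are all constitutive catalytic and other loading genes, the 4 largest absolute ratios of each other pathway list, and the 2 brightest markers of each cell type list. The members and lists were chosen with earlier results of these data known. Counting was tested on simulated data. Alternatives were 3 other scalings, a floor at the 20th percentile, at the 60th or absent, an added constant, 2 other choices of probe set and 2 other thresholds. Python 3.11.15, numpy 2.4.6, pandas 2.3.3 and statsmodels 0.14.6 were used.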

Additional observations from a re-analysis of the deposited data

How the results depend on the processing

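The count of members at least 2-fold lower, 2 as reported, was 1 with each array divided by its median and 1 with the median over each gene's probe sets, since Tapbp then stood at -0.95 and -0.90. It was 5 with a 1.5-fold and 0 with a 3-fold threshold. The median log2 ratio was -0.66 with the median of probe sets, where a dim Tap1 probe set enters and brings Tap1 to -0.66. Of 78 member values under the alternatives, 38 could not or did not change, since members lie above each floor or have 1 probe set; of the 40 that changed, 38 did so by less than the SD between probe sets. The ratio of B2m ran from -0.04 to 0.10 and that of Psme1 from -0.05 to 0.08, so neither has a direction. Dropping probe sets with the suffixes _s_at, _x_at and _a_at leaves 6 members, without Psmb8, Tap2 and B2m. Across all genes, a floor at the 20th percentile gave 1325 higher and 1572 lower, no floor 2057 and 2311, a floor at the 60th percentile 183 and 226, thresholds of 1.5-fold 1035 and 1560 and of 3-fold 91 and 143, against 374 and 526. No paired analysis was possible because each group has 1 array. With 1 array a group, no replicate could be left out, and no setting measures the variation between cell preparations.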
